A study of Mus musculus with 28 samples.

Results

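Heat shock genes were followed in mouse liver, namely the chaperone genes Hspa1a, Hspa1b, Hspa8, Hsp90aa1, Hsph1, Dnajb1, Hspb1, Hspd1 and Hspe1, and the gene of the transcription factor HSF1, Hsf1. They were chosen by name, and their 10 rows were found in the count table of 49585 features by matching identifiers to symbols. All 10 were among the 21583 features with a mean of at least 0.5 normalised counts, on which the tests were run. Liver RNA was sequenced from 28 mice, with 7 wild-type (WT) and 7 SIRT6-tg mice of each sex, and the labels give an age of 5 to 7 months. SIRT6-tg mice carry a transgene for SIRT6, a sirtuin deacetylase, and according to the methods of the study they come from a single transgenic line on the C57BL/6JOlaHsd background and were compared with littermates kept in the same cages. By the same methods, tissue for RNA came from mice that were fasted and killed by CO2 inhalation in the afternoon. Whole liver was used, in which fewer cells of a type and less RNA per cell cannot be told apart.

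Heat shock proteins are chaperones that bind unfolded polypeptides and help them to fold, to assemble or to be degraded. When unfolded proteins accumulate, HSF1 forms trimers, binds heat shock elements near the start sites of its target genes and raises their transcription. Hspa1a and Hspa1b encode the inducible HSP70 proteins, Hspa8 the constitutive HSC70, Hsp90aa1 the inducible HSP90 and Hsph1 the HSP110 protein, which exchanges nucleotides on HSP70. Dnajb1 encodes an HSP40 co-chaperone that delivers clients to HSP70, Hspb1 a small heat shock protein that holds unfolded clients, and Hspd1 and Hspe1 the HSP60 and HSP10 subunits of the mitochondrial chaperonin. Liver makes and secretes much protein and expresses the constitutive members at high levels.

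Start-site sequences are shown for the genes whose heat shock elements could be read. RefSeq windows of 300 bases (GRCm38.p6, from 250 bases before to 50 bases after the start) were found for 7 of the 10 genes, Hspa1a, Hspa1b, Hsph1, Dnajb1, Hspb1, Hspd1 and Hspe1, with 10 windows in all. HSF1 elements are built of 5-base units with GAA in alternating directions, so 2 units were searched on both strands as GAANNTTC and as TTCNNGAA, each its own reverse complement, and 3 alternating units as the overlap of both. GAANNTTC was found in 7 of the 10 windows, from 6 of the 7 genes, and in 7.86% of all 32851 windows. TTCNNGAA was found in 4 of the 10 windows, from 3 genes, and in 8.52% of all windows. Matches to 3 alternating units were found in 4 of the 10 windows, from Hspd1, Hspe1 and Hsph1, and in 0.603% of all windows. Windows of Hspd1 and Hspe1 overlap, as do the 2 of Hsph1, so these matches are not all separate elements. In the following stretches capitals mark these matches, and each sequence reads towards its gene.
Hspa1a: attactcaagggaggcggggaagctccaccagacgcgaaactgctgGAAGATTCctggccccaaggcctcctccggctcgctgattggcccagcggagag
Hspa1b: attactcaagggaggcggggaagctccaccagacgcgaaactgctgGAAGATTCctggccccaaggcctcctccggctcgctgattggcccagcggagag
Hspb1: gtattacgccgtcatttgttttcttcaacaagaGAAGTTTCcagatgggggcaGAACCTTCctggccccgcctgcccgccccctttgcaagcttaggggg
Hspe1: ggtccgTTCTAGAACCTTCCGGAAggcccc
Hsph1: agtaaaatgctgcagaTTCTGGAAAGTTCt

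The Hspa1a stretch (chr17:34972207-34972306, minus strand) and the Hspa1b stretch (chr17:34959289-34959388, minus strand) were identical over all 100 bases, and the whole windows of the pair over 296 of 300 bases. Their single GAANNTTC match began 104 bases before the start. Hspb1 (chr5:135887769-135887868, plus strand) held 2 matches, 117 and 97 bases before its start. The 30 bases of Hspe1 (chr1:55088053-55088082, plus strand) held 2 overlapping matches to 3 alternating units, the first beginning 89 bases before the start of Hspe1. The same bases lie 144 to 127 bases before a start of Hspd1, which is transcribed in the opposite direction, so 1 element is shared by both windows, and the annotation also places an untranslated exon of a longer Hspd1 transcript there. In Hsph1 (chr5:149636287-149636316, minus strand) the 3 units lay 36 to 48 bases after the start of its first window. They fall in an untranslated exon of some of its transcripts. A separate TTCNNGAA match, outside the stretch shown, lay 33 to 26 bases before that start. Counted from the start of the second Hsph1 window, the 3 units lay 15 to 27 bases after it. The separate match lay 54 to 47 bases before it. No match was found in either window of Dnajb1. A match is a description of letters, and binding of HSF1 was not measured.

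Counts per library summed to between 18758863 and 35393069. Counting separates some of these genes poorly. Hspa1a and Hspa1b are near-identical, since 58.8% of the 50-base stretches of Hspa1a transcripts also occur in Hspa1b and 62.3% of those of Hspa1b occur in Hspa1a, and only uniquely mapped reads were counted. Hspa8, Hsp90aa1, Hspb1 and Hspd1 share 38.6%, 47.5%, 48.8% and 39.7% of such stretches with other annotated genes, mainly pseudogenes, and Hspe1 shares 18.4%. Hspd1 and Hspe1 overlap head to head over 112 bases of exon, 564 of the 2967 exon bases of Hspa1a overlap exons of Gm20481 on the other strand, and the strand setting of the counting is not stated in the sources used here. Levels of these genes are therefore uncertain.

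The transgene check came first. Sirt6 was at 2.73 ± 0.511 CPM (read counts scaled to the depth of the library with TMM factors, SD, n = 7) in male WT and 281 ± 55.2 CPM (n = 7) in male SIRT6-tg mice, and at 2.88 ± 1.55 CPM (n = 7) in female WT and 30.2 ± 12.5 CPM (n = 7) in female SIRT6-tg mice, with no overlap between genotypes in either sex. Among SIRT6-tg mice Sirt6 was 9.31-fold higher in males than in females, again with no overlap. Comparisons that involve SIRT6-tg mice of both sexes therefore cannot tell sex from transgene level. Hepatocyte markers summed to between 98123 and 191973 CPM over all 28 libraries. Libraries also differed in the balance of short and long genes. A length index, the mean log2 CPM of 280 protein-coding genes with transcripts under 1000 bases minus that of 1952 genes with transcripts over 5000 bases, ranged from −0.43 to 1.81. It correlated at 0.997 with the main component of the variance within groups, which held 48.0% of it, and 7 libraries had an index of 0.9 or more, among males 1 of WT and 3 of SIRT6-tg mice and among females 1 and 2. Its median was 0.52 in male WT and 0.61 in male SIRT6-tg mice, against −0.02 in female WT and −0.08 in female SIRT6-tg mice. Comparisons between the sexes were therefore offset on the index. What the index stands for was not tested.

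Per length, mitochondrial chaperonin and constitutive HSC70 transcripts led and inducible HSP70 transcripts came last. Hspd1 was at 81.0 ± 6.86 CPM per kb of exon (mean of 28 mice ± SD within groups), Hspe1 at 46.8 ± 13.6, Hspa8 at 31.2 ± 5.82 and Hsp90aa1 at 11.6 ± 6.15 CPM per kb. Dnajb1 at 6.53 ± 0.758, Hspb1 at 5.32 ± 2.91 and Hsph1 at 3.95 ± 1.24 CPM per kb followed, and these neighbours differed by less than the SD of Hspb1. Hsf1 was at 1.76 ± 0.125, Hspa1b at 1.21 ± 0.467 and Hspa1a at 0.0353 ± 0.0297 CPM per kb. The spread between mice of a group differed widely between the genes. On the log2 CPM scale the SD within groups was 0.10 for Hsf1, 0.13 for Hspd1 and 0.17 for Dnajb1, against 0.52 for Hspa1b, 0.58 for Hsp90aa1 and 0.65 for Hspb1. Of 11123 genes with a mean log2 CPM of at least 1, 2.20% had a smaller spread than Hsf1 and 97.3% a smaller spread than Hspb1.

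**Figure D1:**
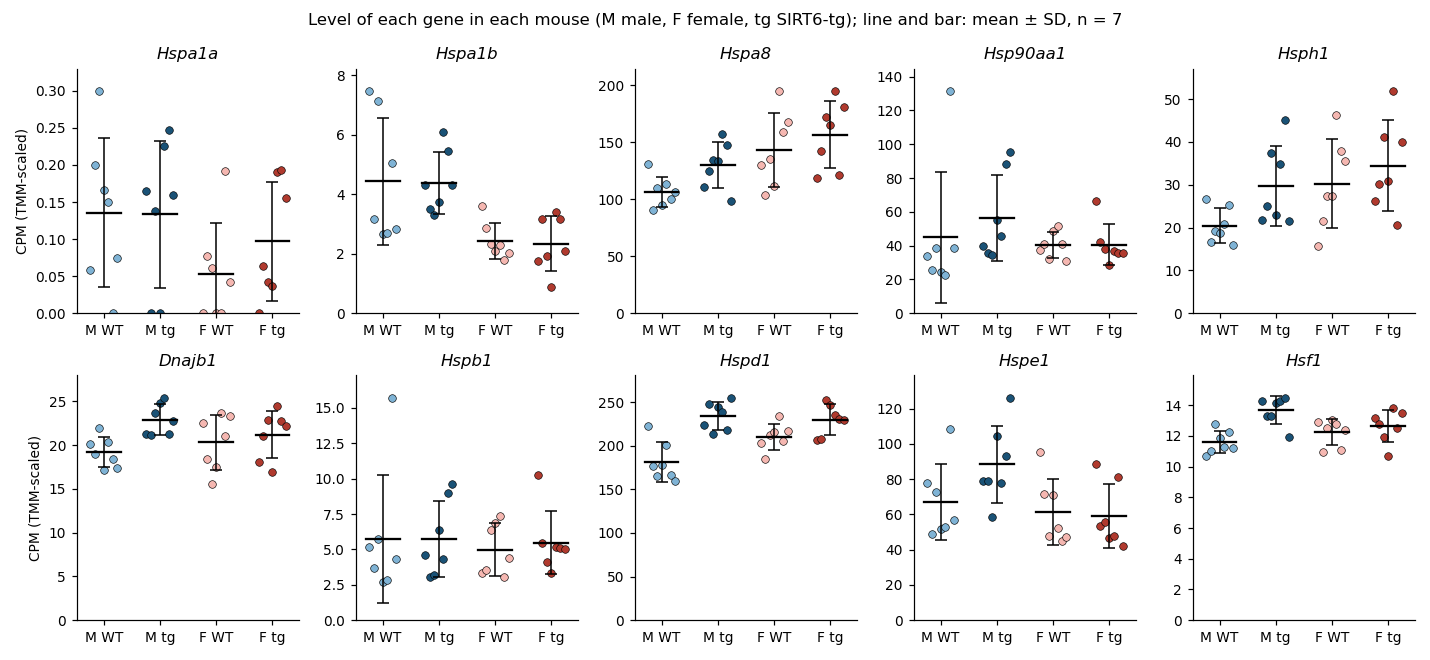
Level of each of the 10 genes in each of the 28 mice, in TMM-scaled CPM on linear axes that start at 0, by sex and genotype (7 mice a group, line and bar for mean ± SD). Hspd1 and Hsf1 varied little within groups, and 1 male WT mouse stood far above the others in Hsp90aa1 (132 CPM) and Hspb1 (15.7 CPM).

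Inducible HSP70 transcripts were scarce. Hspa1a had between 0 and 10 counts per library, which is at most 0.300 CPM, and counts of 0 occurred in every group. Such values leave its changes unresolved at this depth, since a count of 0 allows up to 3 counts at the 95% level, for counting error only. Hspa1b, with the same start-site stretch, ranged from 2.67 to 7.48 CPM (median 3.16) in male WT and from 3.32 to 6.11 CPM (median 4.30) in male SIRT6-tg mice. In females it ranged from 1.80 to 3.60 CPM (median 2.30) in WT and from 0.874 to 3.39 CPM (median 2.09) in SIRT6-tg mice. Male and female values overlapped in both genotypes, although 6 of 7 male SIRT6-tg mice lay above every female SIRT6-tg mouse. Constitutive Hspa8 was far higher, at 90.9 to 131 CPM (median 107) in male WT and 99.0 to 158 CPM (median 134) in male SIRT6-tg mice. In females Hspa8 was at 104 to 195 CPM (median 136) in WT and at 119 to 195 CPM (median 165) in SIRT6-tg mice. Male WT mice had the lowest median, and 3 of 7 lay below all female WT mice.

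Hsp90aa1, the inducible HSP90, ranged from 22.8 to 132 CPM (median 33.98) in male WT and from 34.7 to 95.2 CPM (median 45.8) in male SIRT6-tg mice. The highest value belonged to replicate 6 of male WT, and the other 6 mice of that group stayed at or below 38.5 CPM. In females Hsp90aa1 ranged from 31.1 to 51.4 CPM (median 40.8) in WT and from 28.5 to 66.5 CPM (median 36.9) in SIRT6-tg mice. The groups overlapped throughout. Hsph1, the HSP70 nucleotide exchange factor, ranged from 15.9 to 26.7 CPM (median 19.1) in male WT and from 21.4 to 45.02 CPM (median 25.1) in male SIRT6-tg mice. In females it ranged from 15.8 to 46.3 CPM (median 27.4) in WT and from 20.5 to 51.9 CPM (median 30.8) in SIRT6-tg mice. Male WT mice had the lowest median again, with 3 of 7 male SIRT6-tg mice above all of them.

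Dnajb1, the HSP40 partner of HSP70, was tightly held at 17.1 to 21.9 CPM (median 19.02) in male WT and 21.2 to 25.4 CPM (median 22.8) in male SIRT6-tg mice, with 4 of 7 SIRT6-tg mice above all WT mice. Its values were 15.6 to 23.6 CPM (median 21.1) in female WT and 16.9 to 24.5 CPM (median 22.2) in female SIRT6-tg mice. Hspb1 was low and variable, at 2.67 to 15.7 CPM (median 4.31) in male WT, 3.08 to 9.60 CPM (median 4.60) in male SIRT6-tg, 3.03 to 7.38 CPM (median 4.42) in female WT and 3.35 to 10.2 CPM (median 5.11) in female SIRT6-tg mice. Its highest value was again that of replicate 6 of male WT, and all groups overlapped.

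The mitochondrial pair had the highest levels per kb of exon, although in CPM the mean of Hspe1 lay below that of Hspa8 in every group. Hspd1 ranged from 160.1 to 222 CPM (median 177) in male WT and from 213 to 255 CPM (median 239) in male SIRT6-tg mice, and 5 of 7 SIRT6-tg mice exceeded every WT mouse. In females Hspd1 ranged from 184 to 234 CPM (median 212) in WT and from 206 to 253 CPM (median 231) in SIRT6-tg mice. The lowest median was that of male WT mice. Hspe1 ranged from 48.97 to 108 CPM (median 56.9) in male WT and from 58.6 to 126 CPM (median 79.1) in male SIRT6-tg mice. In females it ranged from 44.9 to 95.5 CPM (median 52.02) in WT and from 42.1 to 88.5 CPM (median 53.5) in SIRT6-tg mice, so that the male SIRT6-tg group was highest. Hsf1 itself ranged from 10.7 to 12.7 CPM (median 11.3) in male WT and from 11.9 to 14.5 CPM (median 14.1) in male SIRT6-tg mice, and 6 of 7 SIRT6-tg mice lay above all WT mice. In females it ranged from 10.9 to 13.02 CPM (median 12.5) in WT and from 10.7 to 13.8 CPM (median 12.8) in SIRT6-tg mice, and these groups overlapped.

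In males, SIRT6-tg livers had more Hspd1 and Hsf1 mRNA than WT livers, and none of the 10 genes was called lower. Hspd1 averaged 234 ± 16.1 CPM (SD, n = 7) against 181 ± 22.4 CPM (n = 7), 0.37 ± 0.08 on the log2 scale (fold change ± SE, edgeR quasi-likelihood test, Benjamini-Hochberg adjusted p = 0.00107). Hsf1 averaged 13.7 ± 0.903 CPM (n = 7) against 11.6 ± 0.730 CPM (n = 7), 0.24 ± 0.08 on the log2 scale (fold change ± SE, adjusted p = 0.0216 in the same edgeR fit). These were 2 of 10 genes called higher and 0 called lower, where 9.68% of all 21583 genes tested were called higher and 11.0% lower, so the share was near the background. At an unadjusted p under 0.05, 5 of the 10 passed, beside 7027 of all 21583 genes, and DESeq2 called the same 2 genes. The median log2 fold change over the 10 genes was 0.27, beside 0.06 over all genes tested, and 7 of 10 were above 0, as were 55.2% of all genes.

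Members that did not pass the test had wider errors. Dnajb1 had a log2 fold change of 0.26 (95% interval 0.06 to 0.45, edgeR adjusted p = 0.0620), Hsph1 of 0.54 (0.12 to 0.96, adjusted p = 0.0727) and Hspa8 of 0.28 (0.02 to 0.55, adjusted p = 0.138). Hspe1 was at 0.40 (−0.00106 to 0.80, edgeR adjusted p = 0.175) and Hsp90aa1 at 0.32 (−0.30 to 0.95, adjusted p = 0.530). Inducible Hspa1b was at −0.02 (−0.52 to 0.48) and Hspb1 at −0.00 (−0.68 to 0.68), so neither direction was resolved. Without replicate 6 of male WT, the mouse with the highest Hsp90aa1 and a length index of 1.58, Hsp90aa1 was called at 0.88 (edgeR adjusted p = 0.00604) and Hspe1 at 0.55 (adjusted p = 0.0425).

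The Hspd1 call held in each of the 14 fits without 1 male library, and the Hsf1 call in 8 of them, being lost without replicate 1, 2 or 4 of male WT or replicate 1, 4 or 6 of male SIRT6-tg (adjusted p from 0.0528 to 0.0824 in edgeR). Male calls also depended on scaling. The TMM factors of male WT libraries lay between 1.06 and 1.17 and those of male SIRT6-tg libraries between 0.821 and 0.993. Scaling by library size alone moved the median of all genes to −0.22, Hspd1 to 0.09 and Hsf1 to −0.04, with neither called. The Hsf1 call was also lost with RLE factors (0.20, edgeR adjusted p = 0.0727), upper-quartile scaling (0.16, adjusted p = 0.177), no filter (0.24, adjusted p = 0.0862) and only the groups compared (0.16, adjusted p = 0.249). Relative to the median of all genes, Hspd1 stood 0.31 higher under TMM and under library size alone, and Hsf1 0.18 higher under both. A scaling factor shifts all genes of a library alike, so this equality was fixed in advance and is no test of the increase. With the length index as a covariate, 6 of the 10 genes were called higher, namely Hspd1, Hsf1, Hspa8, Hsph1, Dnajb1 and Hspe1. Of the newly called genes, Hspa8 was then at 0.36, Hsph1 at 0.62 and Dnajb1 at 0.27, each above its main fit. Hspe1 fell from 0.40 in the main fit to 0.21 (edgeR adjusted p = 0.0119), so its call came with a smaller estimate. Calls over all genes rose as well, to 7217, 59.6% of them higher, against 4467 and 46.8% in the main fit. Without the 7 libraries of high index none of the 10 was called (Hspd1 at 0.25, adjusted p = 0.0682 in edgeR with 6 male WT and 4 male SIRT6-tg mice), beside 2714 of all genes, 21.5% of them higher. Both settings were chosen after seeing the data. Markers of other cells moved along the same comparison, with all 8 T cell markers lower in male SIRT6-tg mice (summed level 16.0 to 50.2 CPM in WT and 4.23 to 7.90 CPM in SIRT6-tg mice), all 8 macrophage markers lower (299 to 929 against 239 to 405 CPM), 6 of 7 stellate cell and fibroblast markers lower (326 to 591 against 263 to 377 CPM), and 4 of 9 hepatocyte markers higher. No marker of these lists was at 0 in every mouse, and their part in the result was not tested.

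**Figure D2:**
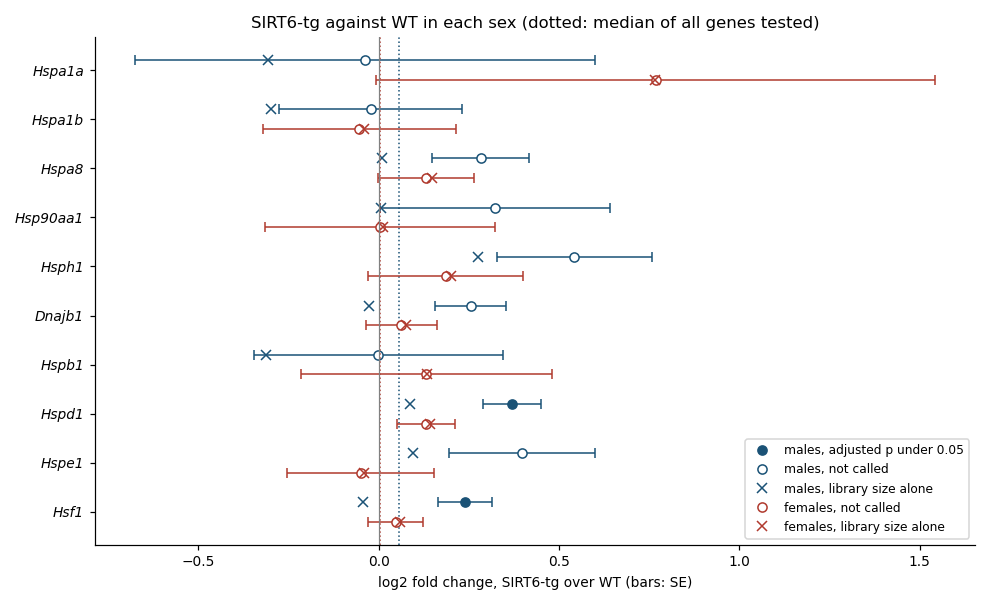
Log2 fold change of SIRT6-tg over WT for the 10 genes in males (blue) and females (red). Bars are approximate standard errors derived from the edgeR test (n = 7 mice a group). Filled points passed the test, crosses show scaling by library size alone and dotted lines the median of all genes. Hspd1 and Hsf1 in males are the 2 filled points, and every male cross lies to the left of its point.

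In females none of the 10 genes passed the test between genotypes. By edgeR, 0 of 10 were called and 0 had an unadjusted p under 0.05, and DESeq2 also called 0, while 0.0278% of all genes tested were called in either direction by edgeR. Hspd1 was at 230.0 ± 17.9 CPM (SD, n = 7) in SIRT6-tg and 210.1 ± 15.2 CPM (n = 7) in WT mice, a log2 fold change of 0.13 (95% interval −0.03 to 0.29), and Hsf1 was at 0.05 (−0.10 to 0.19). Hsph1 was at 0.19 (−0.23 to 0.61), Hspa8 at 0.13 (−0.13 to 0.39), Dnajb1 at 0.06 (−0.13 to 0.26) and Hspe1 at −0.05 (−0.45 to 0.35). The median over the 10 genes was 0.10, beside 0.00257 over all genes.

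The difference between the male and the female effect was tested in the same fit. None of the 10 genes passed (0 called by edgeR and by DESeq2, 1 at an unadjusted p under 0.05 by edgeR), where 5.05% of all genes were called in either direction and 4055 of 21583 had an unadjusted p under 0.05. The gene at an unadjusted p under 0.05 was Hspd1, whose log2 fold change was 0.24 larger in males (standard error 0.11, edgeR adjusted p = 0.250), and for Hsf1 the difference was 0.19 (standard error 0.11, adjusted p = 0.340 in edgeR). The genotype effect on these genes was therefore not shown to differ between the sexes, and this test cannot tell sex from transgene level.

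Between the sexes, few of the 10 genes passed the test. Among WT mice, Hspa1b was higher in males, at 4.44 ± 2.13 CPM (SD, n = 7) against 2.43 ± 0.616 CPM (n = 7), 0.87 ± 0.26 on the log2 scale (fold change ± SE, edgeR adjusted p = 0.0240). Hspa8 was lower in males, at 107 ± 13.3 CPM (n = 7) against 143 ± 32.3 CPM (n = 7), −0.42 ± 0.13 on the log2 scale (fold change ± SE, edgeR adjusted p = 0.0333). Thus 1 of 10 genes was higher and 1 lower, with 6.65% of all genes called higher and 5.71% lower, so both shares were near the background. The Hspa1b call was lost without replicate 1 or 3 of male WT (adjusted p = 0.0635 and 0.0667), the 2 highest mice of the group. The Hspa8 call was lost in 8 of 14 fits without 1 library, namely without replicate 2, 3, 4, 6 or 7 of male WT or replicate 5, 6 or 7 of female WT (adjusted p up to 0.130), and under library size alone (−0.24, adjusted p = 0.281), which moved the median of all genes to 0.19, and with only the groups compared (−0.42, adjusted p = 0.0514). Hspd1 was called lower in males with the length index as a covariate (−0.20, edgeR adjusted p = 0.0386), by DESeq2 (−0.19, adjusted p = 0.0417) and without replicate 1 of male WT (−0.24, edgeR adjusted p = 0.0384). Hsph1 was called lower in males without the 7 libraries of high index (−0.69, edgeR adjusted p = 0.0145) and without replicate 1 of female WT (−0.67, adjusted p = 0.0325). Markers of other cells moved along this comparison too, with all 8 T cell markers and 2 of 8 macrophage markers higher and 2 of 9 hepatocyte markers lower in WT males (summed T cell level 16.0 to 50.2 CPM in males and 5.28 to 18.99 CPM in females), and their part in the result was not tested.

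Among SIRT6-tg mice, Hspa1b was again higher in males, at 4.39 ± 1.04 CPM (SD, n = 7) against 2.34 ± 0.931 CPM (n = 7), 0.91 ± 0.26 on the log2 scale (fold change ± SE, edgeR adjusted p = 0.0128). Hspe1 was higher in males as well, at 88.3 ± 21.9 CPM (n = 7) against 59.3 ± 18.2 CPM (n = 7), 0.58 ± 0.20 on the log2 scale (fold change ± SE, adjusted p = 0.0403 in edgeR). These were 2 of 10 higher and 0 lower, where 12.9% of all genes were called higher and 10.2% lower. The Hspa1b call held in all 14 fits without 1 library, but it was lost with the length index as a covariate (0.67, adjusted p = 0.0821) and without the 7 libraries of high index (0.89, adjusted p = 0.0711). The Hspe1 call was lost in 8 of 14 fits without 1 library, namely without replicate 4, 6 or 7 of male SIRT6-tg or replicate 2, 3, 4, 5 or 7 of female SIRT6-tg, and it was at 0.13 (adjusted p = 0.159) with the index as a covariate. It was also lost with RLE factors (0.55, edgeR adjusted p = 0.0535), upper-quartile scaling (0.50, adjusted p = 0.0872), library size alone (0.47, adjusted p = 0.0621) and no filter (0.58, adjusted p = 0.0646). Among SIRT6-tg mice 3 of 8 macrophage, 4 of 7 stellate cell and fibroblast and 1 of 8 T cell markers were lower and 2 of 9 hepatocyte markers higher in males, and their part was not tested. Sirt6 itself was 9.31-fold higher in these males, so sex and transgene level cannot be told apart here.

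Between mice of the same group the 10 genes did not move as 1 block. Over the 45 pairs, the median Pearson correlation of log2 CPM centred on group means was 0.15 (28 mice), and 4 pairs passed a permutation test within groups (100000 permutations, two-sided, Benjamini-Hochberg adjustment over 45 pairs). Hsp90aa1 and Hspb1 had the closest relation (r = 0.89, permutation p = 1e-05, the smallest the test allows, adjusted p = 0.00045; rho = 0.80, adjusted p = 0.000675 by permutation). It held without the 2 mice farthest from the median of Hsp90aa1 (r = 0.80). Within groups of males r was 0.97 in WT and 0.97 in SIRT6-tg mice, and within groups of females 0.33 in WT and 0.95 in SIRT6-tg mice (n = 7 each, no test).

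HSC70 moved with HSP110. Hspa8 and Hsph1 had r = 0.79 (adjusted p = 0.000675 by permutation; rho = 0.81, adjusted p = 0.00045), with 0.75 after the 2 farthest mice were left out and 0.57 to 0.92 within the 4 groups. The other 2 pairs joined cytosolic chaperones to Hspe1. Hsp90aa1 and Hspe1 had r = 0.69 (permutation adjusted p = 0.00135; rho = 0.68, adjusted p = 0.0021), and Hspb1 and Hspe1 had r = 0.60 (adjusted p = 0.0183 by permutation; rho = 0.52, adjusted p = 0.0608). Without the 2 farthest mice these fell to 0.54 (permutation adjusted p = 0.0601) and 0.39 (permutation adjusted p = 0.341), so both rest in part on those mice. Hspd1 and Hspe1, which share their element and form 1 complex, had r = −0.10 (permutation adjusted p = 0.751).

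Hsf1 mRNA followed none of its targets beyond the threshold. Its highest correlations were 0.44 with Hspa1b (adjusted p = 0.135 by permutation) and 0.36 with Hspb1 (adjusted p = 0.233 by permutation). Hspa1a and Hspa1b, identical around their element, had r = 0.20 (permutation adjusted p = 0.586), with Hspa1a at 0 to 10 counts.

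**Figure D3:**
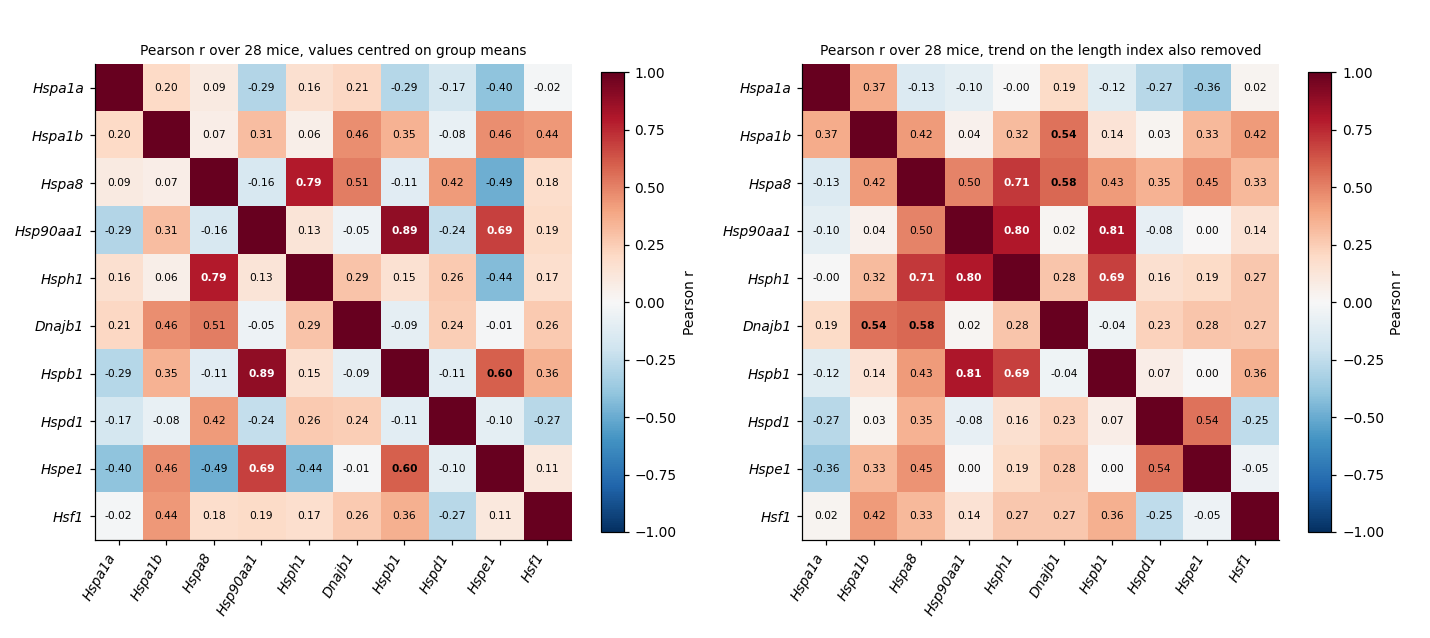
Pearson correlation between the 10 genes over 28 mice, from log2 CPM centred on group means (left) and after the linear trend on the length index was also removed (right), on a colour scale from −1 to 1. Bold values passed the permutation test at an adjusted p under 0.05, which were 4 of 45 pairs on the left and 6 of 45 on the right.

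Several genes moved with the length index of the library. Within groups Hspe1, whose longest transcript has 964 bases, correlated with it at r = 0.96 (permutation adjusted p = 0.0001 over 10 genes), Hsp90aa1 at 0.71 (adjusted p = 0.00015) and Hspb1, at 930 bases, at 0.62 (adjusted p = 0.00303 by permutation). Hspa8 and Hsph1 went the other way, at −0.61 (permutation adjusted p = 0.00577) and −0.50 (permutation adjusted p = 0.0267). The longest transcripts of Hspa8 and Hsph1 have 3158 and 4764 bases, and that of Hsp90aa1, which went up with the index, has 3281 bases. Hspa1b had r = 0.39 (permutation adjusted p = 0.0878) and passed only by rank (rho = 0.48, permutation adjusted p = 0.0276). Hspa1a (−0.32), Hsf1 (0.13), Dnajb1 (−0.09) and Hspd1 (−0.25) did not pass.

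After the linear trend on the index was removed within groups, a step chosen after seeing the data, 6 pairs passed. Hsp90aa1 and Hsph1, at r = 0.13 before, reached r = 0.80 (permutation adjusted p = 0.00045), and Hsph1 and Hspb1 reached 0.69 (permutation adjusted p = 0.00236). Hsp90aa1 and Hspb1 stayed at 0.81 (permutation adjusted p = 0.00045) and Hspa8 and Hsph1 at 0.71 (permutation adjusted p = 0.00236). Dnajb1 joined Hspa8 at 0.58 (permutation adjusted p = 0.0159) and Hspa1b at 0.54 (permutation adjusted p = 0.0200). The relations of Hspe1 with Hsp90aa1 and with Hspb1 fell to 0.00168 and 0.00227, and Hspd1 and Hspe1 went from −0.10 to 0.54 (permutation adjusted p = 0.0605).

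**Figure D4:**
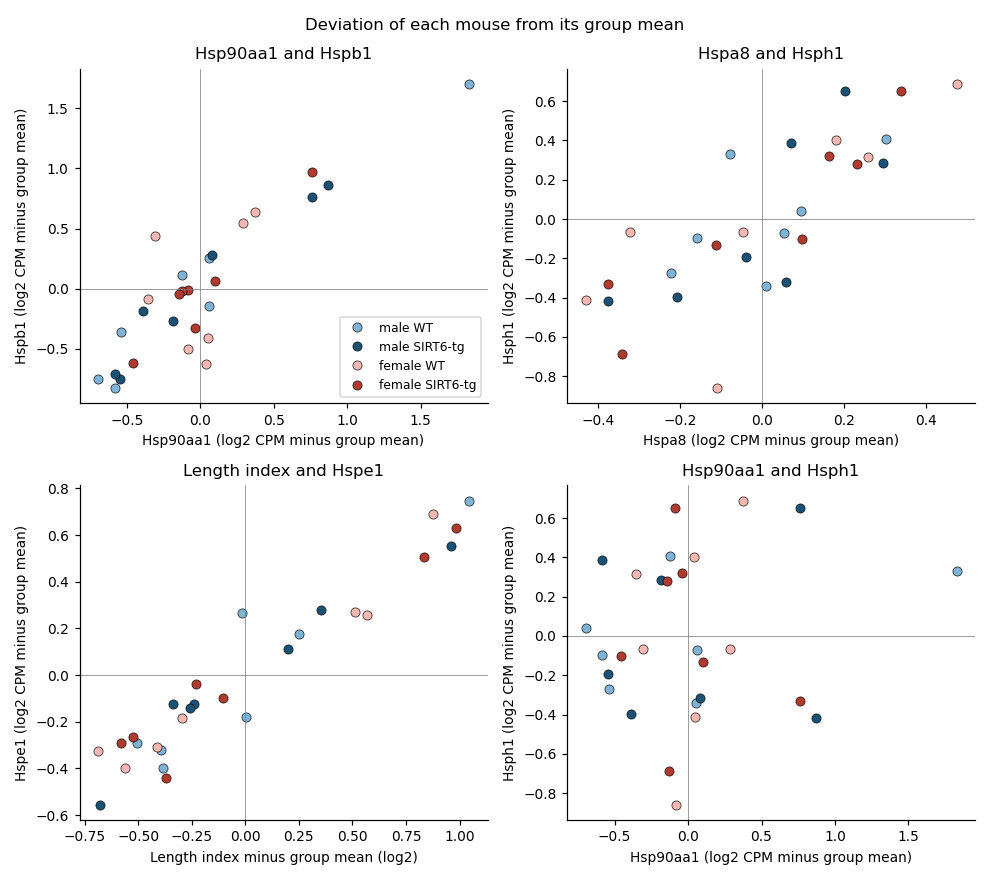
Deviation of each of the 28 mice from its group mean, in log2 CPM or in units of the length index, for 4 pairs of measures, coloured by group. Hsp90aa1 and Hspb1 (r = 0.89), Hspa8 and Hsph1 (r = 0.79) and Hspe1 and the length index (r = 0.96) fall along lines, whereas Hsp90aa1 and Hsph1 (r = 0.13) do not.

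Among 11123 genes with a mean log2 CPM of at least 1, the profile over the 28 mice most like the mean of Hspa1a, Hspa1b, Hsph1, Dnajb1 and Hsp90aa1 was that of Gdf10 (r = 0.70), followed by H2-K2 (0.69), Cdc42ep4 (0.68), Tent5a (0.65) and Lman2l (0.62), given as a description with no test. Most like the mean of Hspd1 and Hspe1 were Mkks (r = 0.95), Ndufb3 (0.94), Atp5f1 (0.94), Ndufb5 (0.94) and Yipf4 (0.94). Ndufb3, Ndufb5 and Atp5f1 encode subunits of the respiratory chain and of ATP synthase, and all these values share the libraries and their length index. Hspd1 and Hspe1 were themselves at r = −0.10, with SDs within groups of 0.13 and 0.40 in log2 CPM. Hspe1 followed the index at r = 0.96, so their mean does not stand for a shared course of the pair. In the first profile Hspa1a, at 0 to 10 counts, had an SD of 0.77.

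Other chaperone lists were counted in the same comparison of males, where 9.68% of all genes were called higher. Of 30 other cytosolic chaperones and co-chaperones, 13 rose and 0 fell in males (median log2 fold change 0.24, beside 0.06 over all genes). Fkbp4, an HSP90 co-chaperone, rose from 107 ± 18.8 to 170.3 ± 26.5 CPM (SD, n = 7 each, log2 fold change 0.67, edgeR adjusted p = 7.65e-05), Bag2, an HSP70 co-chaperone, by 0.84 (adjusted p = 0.000872) and Ahsa1, an activator of the HSP90 ATPase, by 0.32 (adjusted p = 0.00803). Of 14 subunits of the cytosolic chaperonin TRiC and of prefoldin, 9 rose and 0 fell (median 0.31), with Tcp1 at 0.37 (edgeR adjusted p = 7.53e-05), Cct8 at 0.31 (adjusted p = 0.00415) and Cct6a at 0.37 (adjusted p = 0.00500). Of 15 other mitochondrial chaperones and proteases, 7 rose and 0 fell (median 0.31), with Trap1, the mitochondrial HSP90, at 0.35 (edgeR adjusted p = 0.000382), Dnaja3, a mitochondrial HSP40, at 0.33 (adjusted p = 0.000672) and Grpel1, the exchange factor of mitochondrial HSP70, at 0.46 (adjusted p = 0.00817).

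Targets of HSF1 outside the 10 genes went both ways in males. Of 18 well-known targets, many of which are also in the co-chaperone list, 5 rose and 2 fell (median 0.18), with Fkbp4, Ahsa1 and Stip1 (0.44, edgeR adjusted p = 0.00949) up and Rgs2 (−1.02, adjusted p = 0.00124), a regulator of G protein signalling, and Ier5 (−0.68, adjusted p = 0.00264), an immediate early gene product that acts on HSF1, down. None of 11 other heat shock factors and HSF1 regulators passed in males (0 called and 2 at an unadjusted p under 0.05 by edgeR). Of 6 small heat shock proteins tested, 0 rose and 1 fell (median −0.25), Hspb7 (−2.70, edgeR adjusted p = 0.0444), from 0.218 ± 0.197 to 0.0303 ± 0.0320 CPM (SD, n = 7 each). Of 18 immediate early genes, 0 rose and 5 fell in males (median −0.41), where 11.0% of all genes were called lower. Among them were Egr2 (−3.61, edgeR adjusted p = 6.79e-08), Klf6 (−1.05, adjusted p = 5.28e-05) and Atf3 (−1.91, adjusted p = 0.000131). In females 0 of the 18 were called, but the median was −0.36, with 2 above 0, against 6 above 0 in males. In males 0 of 16 clock genes tested passed (1 at an unadjusted p under 0.05 by edgeR).

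Among these lists, cell markers left aside, chaperones of the endoplasmic reticulum had the most genes whose genotype effect differed between the sexes. Of the cell markers, that difference was called for 6 of 8 T cell, 3 of 8 macrophage and 2 of 7 stellate cell and fibroblast markers. It was also called for 1 of 5 B cell, 1 of 9 hepatocyte and 1 of 6 erythroid markers. In males 3 of 14 rose and 0 fell (median 0.36), namely Dnajb9 (0.42, edgeR adjusted p = 0.00271), Hspa5 (0.66, adjusted p = 0.0195), which encodes BiP, and Dnajc3 (0.27, adjusted p = 0.0390). In females 0 of 14 passed, 5 had an unadjusted p under 0.05 by edgeR, and all 14 were below 0 (median −0.25, beside 0.00257 over all genes). The difference between the sexes was called for 5 of 14, beside 5.05% of all genes. It was 1.16 for Hspa5 (standard error 0.29, edgeR adjusted p = 0.0145), 1.23 for Hyou1 (adjusted p = 0.0216), 1.32 for Manf (adjusted p = 0.0475), 0.67 for Dnajb9 (adjusted p = 0.00442) and 0.55 for Dnajb11 (adjusted p = 0.0390). Levels in male SIRT6-tg mice spread widely for Hspa5 (1063 ± 486 CPM), Hyou1 (164 ± 82.2 CPM) and Manf (107 ± 61.7 CPM, SD, n = 7 each). Sex and transgene level cannot be told apart in these differences. No gene of the lists was called between genotypes in females.

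These list counts followed the scaling and the length index. Under library size alone, 2 cytosolic co-chaperones rose and 1 fell, 0 TRiC or prefoldin subunits rose and 1 fell, 0 mitochondrial and 0 endoplasmic reticulum chaperones passed, and no difference between the sexes was called for the last list. Over all genes, that setting called 4294 in males, 4.89% of them higher, and 1863 for the difference between the sexes, 1.40% of them positive. Without the 7 libraries of high index, 2 of 30, 1 of 14, 2 of 15 and 0 of 14 genes of these lists rose in males, and the difference between the sexes was called for 4 of 14 endoplasmic reticulum chaperones. Over all genes, 2714 were then called in males, 21.5% of them higher, and 680 for the difference between the sexes, 11.5% of them positive. With the index as a covariate, 16, 11, 12 and 7 rose, beside 7217 genes called in males in all, 59.6% of them higher. The main fit called 4467, 46.8% of them higher, so the background moved with the lists.

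**Figure D5:**
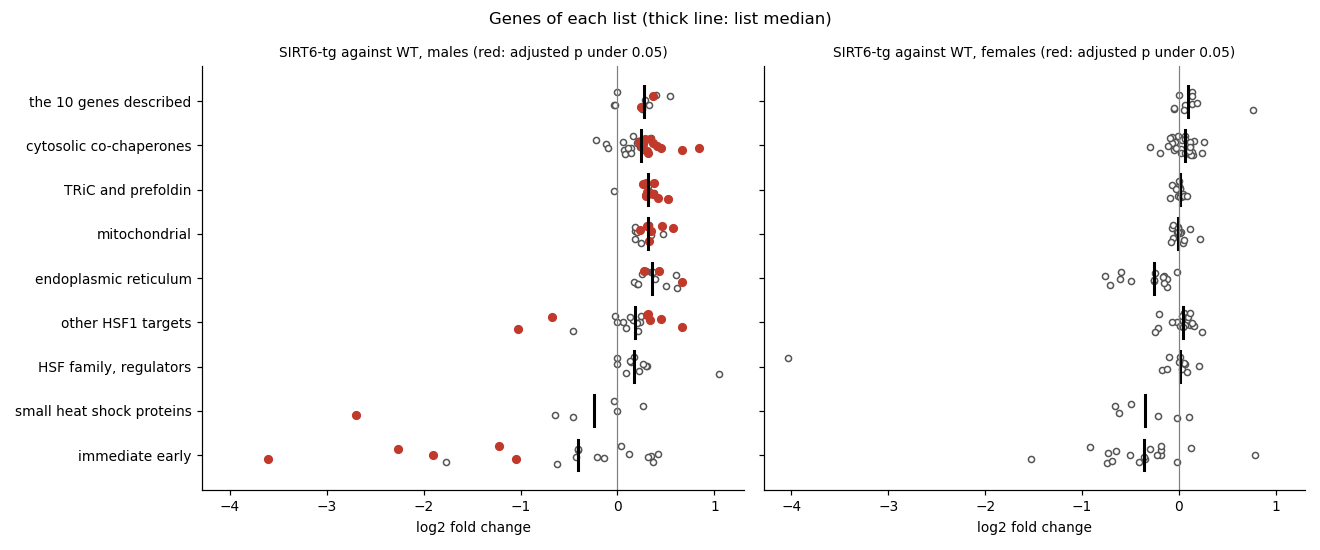
Log2 fold change of SIRT6-tg over WT for each gene of 9 lists in males (left) and females (right), red where the adjusted p was under 0.05 and with a thick line at the list median. In males the red points of the cytosolic, TRiC, mitochondrial and endoplasmic reticulum lists lie to the right of 0 and those of the immediate early genes to the left, and no point is red in females.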

How the data were processed

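Liver RNA of 28 mice was sequenced as single-end reads, and the authors aligned reads to the mm10 genome with STAR 2.5.0a and counted uniquely mapped reads per gene with HTSeq, per the labels and the methods of the study. The deposited values are raw counts per gene, with no normalisation. Positions and exons came from a Gencode annotation of the same build, and start-site sequences from RefSeq. The members and gene lists were chosen with earlier results of these data known. Counts were scaled by TMM and tested with edgeR 4.0.16 (R 4.3.3, robust quasi-likelihood fit of all 4 groups together, features with a mean of at least 0.5 normalised counts, Benjamini-Hochberg adjustment over 21583 features, threshold 0.05). Standard errors were derived from the fold change and the test statistic of the fit, and 95% intervals from these with a normal quantile. Both are approximations, and an interval can be narrower than the p-value of the test implies. Log2 CPM used a prior count of 2. Correlations used mice centred on their group means, permuted 100000 times within groups. Scripts were tested on simulated data. The genes named from each list were the 3 with the lowest adjusted p in each direction in males, plus any called in females or for the difference between the sexes. Alternatives were DESeq2 1.42.0, other scalings and filters, a replicate block, fits to only the groups compared, the length index and leaving out each library. Depth limits Hspa1a, and the limit that a count of 0 allows covers counting error only.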

Additional observations from a re-analysis of the deposited data

Results flagged for a closer look

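Within groups of 7 mice, a mouse stood apart from the rest by Dixon's criterion in 5 of the 40 combinations of gene and group, where chance gives about 1 in 20. The combinations are not independent, since Hsp90aa1 and Hspb1 correlated at r = 0.89 and the same mice were flagged in both. The count of 5 is therefore no test against that rate. Replicate 6 of male WT had 132 CPM of Hsp90aa1 and 15.7 CPM of Hspb1, with gaps to the nearest mouse of 0.855 and 0.765 of the range of the group. Replicate 1 of female SIRT6-tg had 66.5 CPM of Hsp90aa1 and 10.2 CPM of Hspb1, with gaps of 0.645 and 0.699 of the range. Both mice were among the 7 libraries with a length index of 0.9 or more, and the part of the index in these values was not tested. Replicate 6 of female WT had 0.192 CPM of Hspa1a, in a gene with at most 10 counts per library.

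Among the lists other than cell markers, the SIRT6-tg effect differed between males and females for 5 chaperones of the endoplasmic reticulum. By the edgeR test, the difference (male minus female log2 fold change) was 1.16 for Hspa5, 1.23 for Hyou1, 1.32 for Manf, 0.675 for Dnajb9 and 0.554 for Dnajb11. The effect also differed for the immediate early genes Klf6 (−0.87, adjusted p = 0.0352 in edgeR) and Egr2 (−2.86, adjusted p = 0.00232 in edgeR). Sex and transgene level cannot be told apart in these differences. For Hsf5, a heat shock factor, the difference was 5.08 (edgeR adjusted p = 0.0108). Mean levels of Hsf5 were 0.0352 CPM in male WT, 0.0714 CPM in male SIRT6-tg, 0.0734 CPM in female WT and 0 CPM in female SIRT6-tg mice. Both the size of that difference and its call therefore rest on counts near 0.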

How the results depend on the processing

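Of 1325 log2 fold changes of the 10 genes under alternatives, 1272 kept their side of the threshold, 40 lost a call, 12 gained a call and 1 called value changed sign, Hsf1 in males under library size alone (−0.042). In 91 more the sign changed where neither value was called. Of 180 correlations, 168 kept their side, 4 lost and 8 gained a call, and 19 changed sign with neither called. The cause of these changes was not tested. In males, where 2 of the 10 genes were called, the number was 1 with RLE factors, 1 with upper-quartile scaling, 0 with library size alone, 1 with no filter, 1 with only the groups compared, 6 with the length index as a covariate (7217 genes in all, against 4467) and 0 without the 7 libraries of high index (2714 genes). Calls in males were higher in SIRT6-tg for 46.8% of genes, against 35.7% with RLE factors, 26.2% with upper-quartile scaling, 4.89% with library size alone, 59.6% with the covariate, 21.5% without the 7 libraries and 27.7% with only the groups compared. In females 6 genes were called, against 44 by DESeq2, 13 with the covariate, 2 without the 7 libraries and 2 with only the groups compared, and none was a member. The difference between the sexes was called for 1089 genes, 23.9% of them positive, against 1863 (1.40% positive) with library size alone, 2638 (48.5%) with the covariate and 680 (11.5%) without the 7 libraries, and upper-quartile scaling gave 10.8% positive. No fit to only the groups compared applies to it. Between WT males and females 2669 genes were called, 53.8% higher in males, against 4212 (86.8%) with library size alone and 4543 with the covariate, and 65.1% were higher without the 7 libraries. Of the 10 genes 2 were called, against 1 with library size alone, 1 with only the groups compared and 3 each by DESeq2, with the covariate and without the 7 libraries. Between SIRT6-tg males and females 2 of the 10 were called, against 1 with RLE factors, 1 with library size alone, 1 with no filter, 1 without the 7 libraries and 0 with the covariate. There 55.9% of calls were higher in males, against 39.2% with upper-quartile scaling and 39.01% with library size alone. Without 1 library, the members called ranged from 1 to 4 in males, 0 to 3 between WT sexes and 1 to 2 between SIRT6-tg sexes, and genes called from 3 to 16 in females and 3301 to 4810 in males. Pairs called among the 45 were 4, against 8 with library size alone and 2 without the 2 farthest mice. Per kb of the longest transcript in place of all exons, the levels were 88.3 CPM for Hspd1, 71.6 for Hspe1, 42.5 for Hspa8, 6.03 for Hsph1 and 3.998 for Hsf1. The filter filterByExpr left out Hspa1a.

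With the replicate number as a block, 4209 genes were called in males, 6 in females, 989 for the difference between the sexes, 2474 between WT sexes and 4821 between SIRT6-tg sexes, and the number of members called was 2, 0, 0, 2 and 2, as without it. Mice with the same number did not deviate together, with correlations from −0.35 to 0.43 in males and from −0.62 to 0.51 in females, over 0.1 in 4 of 7 pairs in each sex, and 1 of 7 numbers in each sex correlated best with its own. These values gave no sign that the numbers pair the mice. Pairing by litter or cage is not given by the numbers and was not tested.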
